A study of Homo sapiens with 9 samples.

Results

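The measurements describe 10 genes of the insulin-like growth factor (IGF) and insulin system: the growth factor IGF2, the IGF-binding proteins IGFBP1, IGFBP2, IGFBP3, IGFBP4 and IGFBP6, the receptors IGF1R and INSR, and the insulin receptor substrates IRS1 and IRS2. They were taken by gene symbol from the 60683 genes listed in the count table, and all 10 were among the 22672 genes with at least 10 counts summed over the libraries, which were tested. The transcriptome data come from Hep3B, an established human liver cancer cell line. Cultures were kept for 24 h either at 20% O2 with DMSO as vehicle, at 1% O2 with DMSO, or at 1% O2 with 32-134D, and each condition has 3 libraries that the labels call biological replicates. 32-134D is a small molecule inhibitor of the hypoxia-inducible factors HIF-1 and HIF-2, and its concentration is not given in the sample labels. All 9 libraries came from this single line, and no library with 32-134D at 20% O2 was analysed here, so effects of the compound that do not depend on low oxygen cannot be told apart from those that do.

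IGF1 and IGF2 are secreted growth factors that bind the receptor tyrosine kinase IGF1R, and IGF2 also binds INSR, the receptor of insulin. IGF-binding proteins hold IGFs outside the cell and control how much reaches the receptors. Activated receptors phosphorylate IRS1 and IRS2, which recruit PI 3-kinase and thereby AKT, and AKT keeps FOXO transcription factors out of the nucleus. Liver is a main source of circulating IGFs and of IGFBP1, whose gene is repressed by insulin through this route, and many liver cancers make IGF2.

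Libraries held between 6013980 and 40549699 counts, with the smallest total in replicate 2 of vehicle at 20% O2. Replicate 3 of 32-134D stood apart: its root-mean-square log2 difference to its group mates was 0.439, against 0.183 to 0.295 in the other 8 libraries. In that library the hepatocyte genes TTR and FGB lay at 9.79 and 6.86 CPM (counts per 1000000 counts of the library after scaling), compared with 34.5 to 37.9 CPM and 33.1 to 33.5 CPM in replicates 1 and 2 of 32-134D. Most log2 fold changes with the compound are therefore given with and without it. Among the hepatocyte markers ALB lay between 5948 and 10208 CPM and HNF4A between 335 and 418 CPM in all libraries. SERPINA1 lay between 1793 and 2622 CPM, AFP between 86.0 and 239.2 CPM and APOA1 between 227.2 and 604.9 CPM, with replicate 3 of 32-134D the lowest library for each. APOB was lower in hypoxic vehicle, at 377.5 to 423.3 CPM, than in the other 6 libraries, at 2707 to 5256 CPM, as IGF2 and IGF1R were. Of the markers of other cells, leukocyte PTPRC did not exceed 0.215 CPM, endothelial PECAM1 1.28 CPM and macrophage CD68 0.842 CPM, COL1A1 of stromal cells lay between 2.73 and 10.4 CPM, and stellate cell ACTA2 had 0 counts in every library. The part of these levels in the results was not tested. In bulk RNA, fewer cells of a kind and less RNA per cell cannot be told apart.

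Called genes are those with a Benjamini-Hochberg adjusted p (FDR) below 0.05 in edgeR and a fold change above 1.5. In vehicle-treated cells, hypoxia raised 2 of the 10 genes, IGFBP1 and IRS2, and lowered 2, IGF2 and IGF1R. Over all tested genes 19.5% were called higher and 20.3% lower in the same comparison. In hypoxia 32-134D raised 2, IGF2 and IGF1R, and lowered 2, IGFBP1 and IGFBP6, where 16.2% of all tested genes were called higher and 13.7% lower. Against normoxic vehicle the cells with 32-134D at 1% O2 had 2 of the 10 genes higher, IGFBP1 and IRS2, and 0 lower, compared with 3.0% and 0.516% of all tested genes. These comparisons share libraries: the vehicle libraries at 1% O2 enter both of the first, with opposite sign, and are no independent evidence of a reversal. The median log2 fold change of the 10 genes was 0.32 in hypoxia, -0.06 with the compound in hypoxia and 0.06 against normoxia, while the medians of all tested genes were 0.00, -0.01 and -0.00. Without replicate 3 of 32-134D, the compound still raised IGF2 and IGF1R in hypoxia and lowered IGFBP1 and IGFBP6, IRS2 was also called lower, and only IGFBP1 was called against normoxia.

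**Figure D1:**
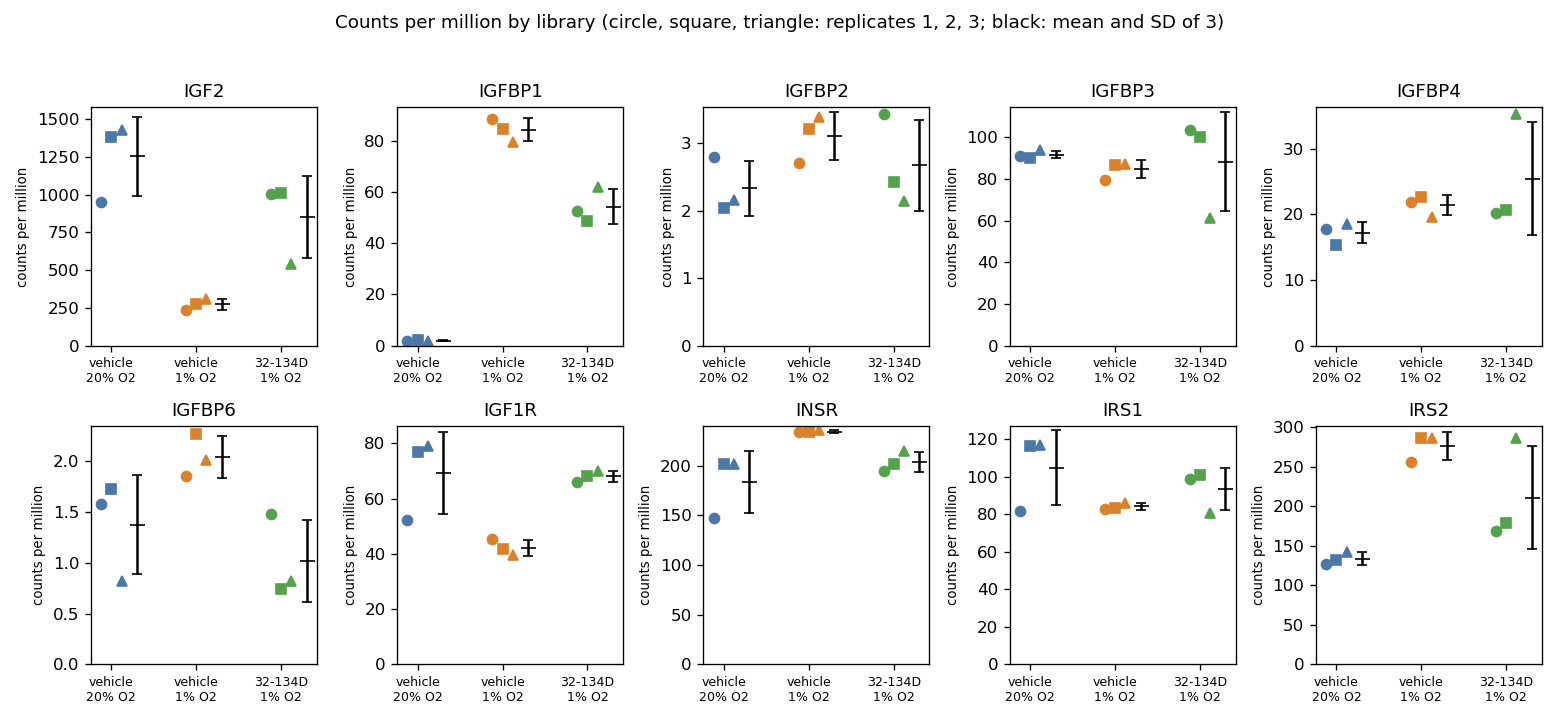
CPM (vertical axes from 0) of the 10 genes in the 9 libraries, 1 panel per gene. Coloured points are libraries, and black bars are the mean and SD of 3. IGFBP1 lay near 2 CPM at 20% O2 and at 48.5 to 88.6 CPM in all libraries at 1% O2, and replicate 3 of 32-134D (green triangle) stood apart for IGF2, IGFBP3, IGFBP4 and IRS2.

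IGF2, the growth factor of the set, fell at 1% O2 and was higher with 32-134D. Its gene lies on the minus strand of chromosome 11 (GRCh38, chr11:2129112-2149603), in the imprinted region that also holds H19. Vehicle libraries at 20% O2 had 954, 1383 and 1424 CPM, vehicle libraries at 1% O2 had 235, 279 and 306 CPM, and libraries with 32-134D had 1002, 1012 and 542 CPM. Every hypoxic vehicle library was below every other library, while the compound and normoxic vehicle groups overlapped. The log2 fold change was -2.20 in hypoxia (SE 0.21, FDR = 4.01e-07), a 4.58-fold fall. With the compound in hypoxia it was 1.64 (SE 0.20, FDR = 1.09e-05), a 3.12-fold rise. Against normoxic vehicle it was -0.56 (95% interval -0.98 to -0.13, FDR = 0.0950), so a return to the normoxic level was not shown and a shortfall did not pass the test. Replicate 3 of 32-134D held 1.86-fold less IGF2 than the mean of replicates 1 and 2, and without it the values were 1.88 for the compound in hypoxia and -0.32 against normoxia. In the GENCODE release 29 annotation, 73.7% of the bases of IGF2 exons also belong to another gene entry named IGF2. That entry, ENSG00000284779, is on the same strand and had 1 count in all. INS-IGF2, with 0 counts, shares 20.9% of the bases of IGF2 exons. An antisense gene, IGF2-AS, covers 333 of those bases. How reads in shared bases were assigned, and whether strand was used, is not given in the sources used here, so the level of IGF2 is uncertain.

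At the same locus, IGF2-AS had 22.4, 18.8 and 22.6 CPM at 20% O2, 7.85, 9.34 and 10.1 CPM in hypoxic vehicle and 17.0, 14.3 and 8.0 CPM with 32-134D. It was called lower in hypoxia, at a log2 fold change of -1.25 (FDR = 0.000115). With the compound in hypoxia it was 0.55 and not called, and without replicate 3 of 32-134D it was 0.80 (FDR = 1.13e-06) and called higher. Against normoxia it was -0.70 (called lower), and -0.47 and not called without replicate 3. Reads from its overlap with IGF2 cannot be separated without strand. H19, the neighbouring imprinted noncoding RNA, was far more abundant, at 2264 to 3178 CPM in the 6 vehicle libraries and at 2253, 2282 and 1399 CPM with the compound. H19 was not called in any of the 3 comparisons, with log2 fold changes of 0.09, -0.50 and -0.41, the latter pair -0.30 and -0.22 without replicate 3. IGF1, the other growth factor, was near the floor of detection, with 2 to 9 counts per library in both vehicle groups and 12 to 21 counts with 32-134D, and on those counts it was called lower in hypoxia (FDR = 0.0425) and higher with the compound (FDR = 0.000632).

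IGFBP1, a liver-secreted binding protein known for rapid changes with feeding and stress, had the largest change of the 10 genes in hypoxia. Vehicle libraries at 20% O2 held 1.86, 2.36 and 1.98 CPM, vehicle libraries at 1% O2 held 88.6, 84.3 and 79.6 CPM, and libraries with 32-134D held 52.4, 48.5 and 61.7 CPM. The compound libraries lay between the vehicle groups, without overlap on either side and closer to the hypoxic one. Hypoxia raised IGFBP1 42.0-fold (log2 5.39, SE 0.13, FDR = 1.47e-12). With the compound it was 1.56-fold lower than in hypoxic vehicle (log2 -0.64, SE 0.09, FDR = 4.17e-05). It remained 27-fold above normoxic vehicle (log2 4.75, SE 0.13, FDR = 6.30e-11). The decrease with 32-134D sat at the fold threshold: over 16 alternative fits the FDR stayed below 0.05 in 16, the fold change ran from 1.37 to 1.67, and 8 of the fits called it. Without replicate 3 of 32-134D the decrease was -0.74 on the log2 scale and the excess over normoxia 4.65.

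IGFBP3 is the neighbour of IGFBP1 on chromosome 7 (chr7:45912245-45921874, minus strand, against chr7:45888357-45893668, plus strand) and the principal IGF carrier of serum. It had 91.1, 90.3 and 93.9 CPM at 20% O2, 79.7, 86.8 and 87.4 CPM in hypoxic vehicle, and 103.5, 100.3 and 61.2 CPM with 32-134D. The vehicle groups did not overlap but differed by little, and the compound group spread to both sides of them. The log2 fold change in hypoxia was -0.12, with a 95% interval of -0.43 to 0.19, which leaves out a change of the size seen for IGFBP1. With the compound in hypoxia it was 0.06 (-0.24 to 0.37), and 0.27 without replicate 3 of 32-134D (FDR = 0.00216, under the fold threshold).

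Of the other 3 binding proteins 1, IGFBP6, was called in 1 comparison. IGFBP4, which restrains IGF action and is cut by the protease PAPPA, had 15.4 to 18.5 CPM at 20% O2, 19.7 to 22.6 CPM in hypoxic vehicle and 20.3, 20.7 and 35.3 CPM with the compound. It was not called in any comparison. Its value with the compound in hypoxia was 0.24, and -0.06 without replicate 3, and its value against normoxia of 0.53 (FDR = 0.0769) was 0.21 without replicate 3. IGFBP6, which prefers IGF2 over IGF1, had 1.58, 1.73 and 0.82 CPM, 1.86, 2.26 and 2.0 CPM, and 1.47, 0.74 and 0.82 CPM in the same order of groups. With the compound IGFBP6 was called lower (log2 -0.97, SE 0.30, FDR = 0.0153), and also without replicate 3 (-0.83, FDR = 0.0129), but 3 of the 16 alternative fits gave an FDR of 0.0503 to 0.0696. The hypoxia value of IGFBP6, 0.72, missed the threshold (FDR = 0.0775), but 3 of the 16 alternative fits called it higher. Without replicate 3 of vehicle at 20% O2 it was 0.30. IGFBP2 ranged from 2.04 to 3.43 CPM over the 9 libraries, its groups overlapped in every comparison and it was not called. IGFBP5, a further family member outside the set, had 2 counts in all 9 libraries together.

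Levels were compared between genes as CPM per kilobase of exon. The summed level of the 5 binding proteins was 30.7 ± 0.69 at 20% O2, 81.3 ± 2.53 in hypoxic vehicle and 65.0 ± 3.08 with 32-134D (SD, n = 3 each). At 20% O2 IGFBP3 made up 65.5% of that sum and IGFBP1 4.08% ± 0.60. In hypoxic vehicle the shares were 22.8% for IGFBP3 and 62.6% ± 1.77 for IGFBP1. With 32-134D IGFBP1 still held the largest share of the 5, 50.3% ± 4.11, at 48.5%, 47.5% and 55.1% in replicates 1, 2 and 3. IGFBP3 held 30.0%, at 34.7%, 35.6% and 19.7%. IGFBP4 took 25.5%, 11.9% and 17.7% in the 3 groups, and IGFBP2 and IGFBP6 averaged at most 3.35% in any group. The shares sum to a whole, so the fall in the share of IGFBP3 came without a called change in IGFBP3 itself. IGFBP7, a further binding protein outside the set and this sum, lay at 41.3, 19.2 and 30.4 in the 3 groups. That was above IGFBP3 at 20% O2, and above IGFBP1 in replicates 1 and 2 of 32-134D but not in replicate 3.

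**Figure D2:**
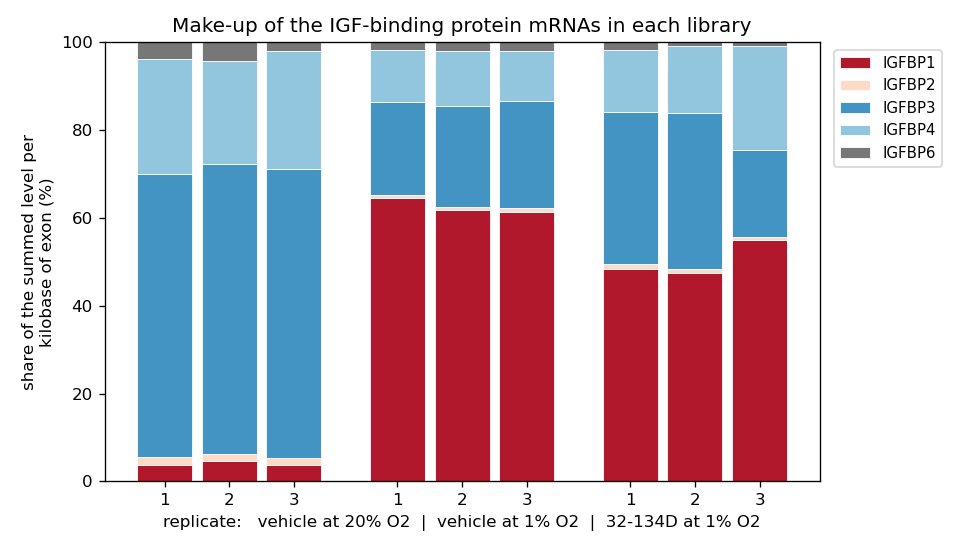
Share of each of the 5 IGF-binding proteins in their summed level per kilobase of exon (%, stacked to 100%), 1 bar per library and 3 libraries per group. IGFBP1 took 4.08% on average at 20% O2, 62.6% in hypoxic vehicle and 50.3% with 32-134D.

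On the same per-length scale IGF2 was the most abundant of the 10 genes at 20% O2, at 179.6, above IGFBP3 at 20.1. INSR at 17.5 and IRS2 at 16.5 followed with overlapping libraries, then IRS1 at 10.5 and IGFBP4 at 7.83, which also overlapped. IGF1R lay at 4.97, and IGFBP1, at 1.25, overlapped IGFBP6, at 1.02, with IGFBP2 last. In hypoxic vehicle IGFBP1 came first, at 50.9, followed by IGF2 at 39.2 and IRS2 at 33.9, whose libraries overlapped each other. With 32-134D IGF2 was first again, at 122.1, and IGFBP1 at 32.8 overlapped IRS2 at 26. The ranks of IGF2 carry the uncertainty of its shared exons.

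Of the 2 receptors only IGF1R was called, and the values of INSR had the opposite sign in hypoxia and with the compound. IGF1R (chr15:98648539-98964530, plus strand), the main IGF receptor, had 52.3, 76.8 and 78.9 CPM at 20% O2, 45.3, 41.7 and 39.7 CPM in hypoxic vehicle, and 65.9, 68.3 and 70.0 CPM with 32-134D. Each hypoxic vehicle library was below all others, and the compound libraries lay within the range of the normoxic ones. The log2 fold change was -0.71 in hypoxia (SE 0.12, FDR = 0.000172) and 0.69 with the compound (SE 0.12, FDR = 0.000270). Against normoxia it was -0.03 with a 95% interval of -0.29 to 0.24. Without replicate 3 of 32-134D the latter pair were 0.67 and -0.05. INSR (chr19:7112255-7294034, minus strand), the insulin receptor, had 147.1, 201.1 and 201.8 CPM, 233.5, 233.6 and 235.7 CPM, and 194.7, 201.7 and 214.7 CPM in the same order of groups. Its hypoxia value of 0.35 passed the FDR (0.00805) at a fold change of 1.28, under the threshold, and with the compound it was -0.20 (FDR = 0.114), or -0.24 (FDR = 0.0268, still under the fold threshold) without replicate 3. Replicate 1 of vehicle at 20% O2 was the lowest normoxic library for both receptors and for IRS1. Without it the hypoxia values were 0.16 for INSR, -0.94 for IGF1R and -0.52 for IRS1. Scaled by total library size, INSR was at 0.14 in hypoxia (FDR = 0.25).

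The ratio of INSR to IGF1R counts within a library does not depend on scaling. It was 2.81, 2.62 and 2.56 at 20% O2, 5.15, 5.61 and 5.93 in hypoxic vehicle and 2.95, 2.95 and 3.07 with the compound. The ratio at 1% O2 in vehicle exceeded that in every other library. The difference in log2 ratio was 1.06 in hypoxia and -0.89 with the compound (p = 0.1 each by a two-sided exact permutation test, the smallest p that 3 against 3 libraries allow, 0.12 after adjustment over 12 ratio tests). Against normoxia it was 0.17, with every compound library above every normoxic one (p = 0.1 in the same permutation test, 0.12 adjusted).

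Of the 2 substrates only IRS2 was called in hypoxia. IRS2 (chr13:109752698-109786568, minus strand), the principal substrate of hepatic insulin signalling together with IRS1, had 127.3, 132.1 and 142.9 CPM at 20% O2, 255.8, 286.5 and 286.2 CPM in hypoxic vehicle, and 169.0, 178.5 and 286.4 CPM with 32-134D. Replicates 1 and 2 with the compound lay between the vehicle groups, and replicate 3 lay at the hypoxic level. Hypoxia raised IRS2 2.06-fold (log2 1.04, SE 0.15, FDR = 3.43e-05). With the compound the log2 fold change was -0.39 (SE 0.15, FDR = 0.0444), under the fold threshold, and without replicate 3 it was -0.67 (FDR = 1.14e-08) and called. Against normoxia IRS2 was higher by 0.65 (FDR = 0.0133), and by 0.37 without replicate 3, which is under the threshold. IRS1 (chr2:226731317-226799759, minus strand) had 81.7, 116.2 and 116.8 CPM, 83.0, 83.6 and 86.2 CPM, and 98.6, 101.0 and 80.9 CPM. It was not called, with -0.31 in hypoxia (FDR = 0.0398, under the fold threshold) and 0.15 with the compound, or 0.24 (FDR = 0.0350) without replicate 3. The ratio of IRS2 to IRS1 was 1.56, 1.14 and 1.22 at 20% O2, 3.08, 3.43 and 3.32 in hypoxic vehicle, and 1.71, 1.77 and 3.54 with 32-134D.

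**Figure D3:**
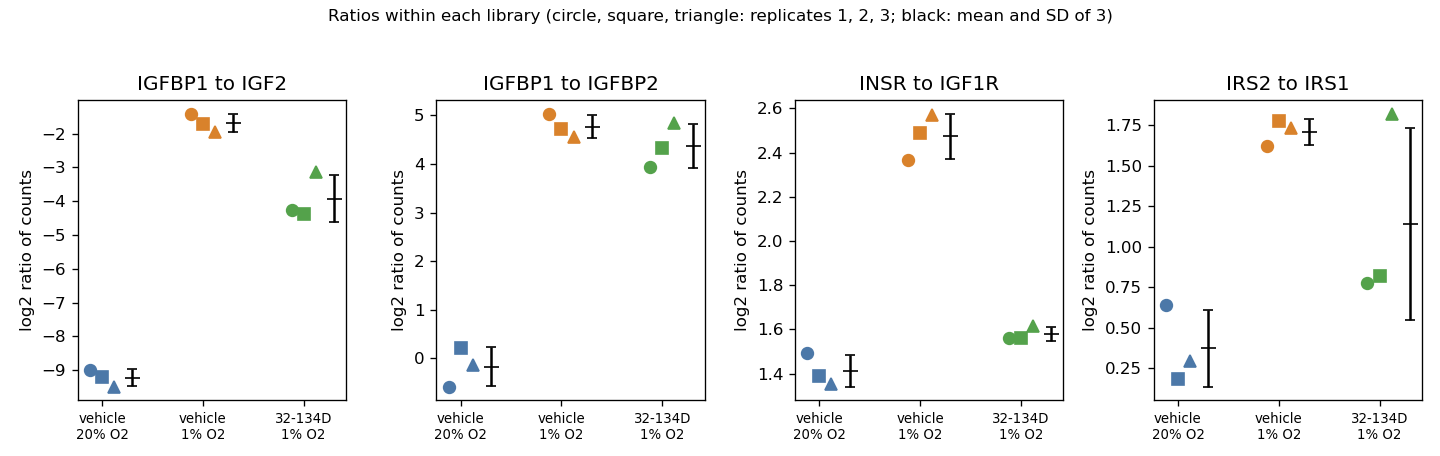
Log2 ratio of the counts of 2 genes within each library (vertical axes, not starting at 0), for 4 pairs and 3 groups; points are libraries, black bars the mean and SD of 3. INSR to IGF1R was 5.15 to 5.93 on the linear scale in hypoxic vehicle, 2.56 to 2.81 at 20% O2 and 2.95 to 3.07 with 32-134D.

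The ratio of IGFBP1 to IGF2 counts, binding protein to growth factor, had the largest differences of the 4 ratios computed. Its mean log2 value was -9.23 ± 0.25 at 20% O2, -1.69 ± 0.27 in hypoxic vehicle and -3.93 ± 0.69 with 32-134D (SD, n = 3 each). The 3 groups did not overlap, and each of the 3 differences had p = 0.1 in the exact permutation test (0.12 adjusted). The ratio of IGFBP1 to IGFBP2 was higher by 4.94 in hypoxia (p = 0.1, exact permutation test), and its difference with the compound, -0.40, lay within the spread of the libraries (p = 0.3).

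**Figure D4:**
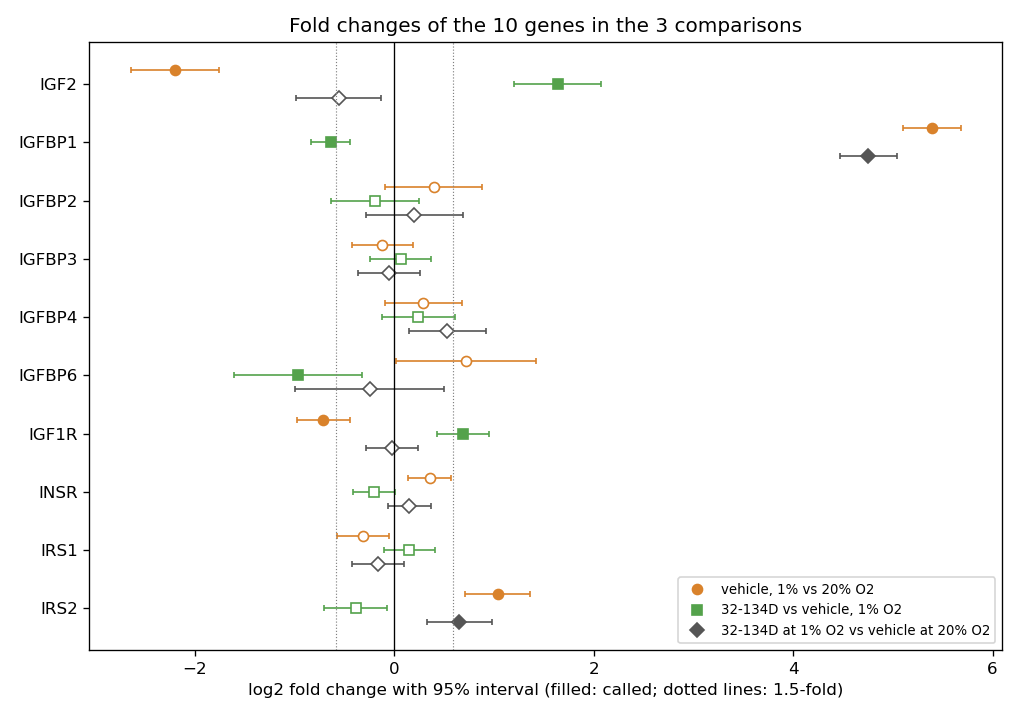
Log2 fold change (horizontal axis) with its 95% interval for the 10 genes in the 3 comparisons. Filled symbols were called and dotted lines mark a 1.5-fold change. IGFBP1 lay at 5.39 in hypoxia and -0.64 with the compound, and IGF2 at -2.20 and 1.64.

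Promoter sequence is shown for the receptor pair and the substrate pair, since in each pair only 1 gene was called in hypoxia. The 250 bases before the RefSeq gene start were read from GRCh38.p14, 5′ to 3′ on the strand of the gene, and 8 of the 10 genes had such an entry. Both strands were searched for the letters ACGTG and GCGTG (the hypoxia response element core that HIF dimers bind), CAAAACA and GTAAACA (forkhead, or FOXO, sites), TATTTTG (the core of the insulin response sequence) and CACGTG (an E-box, which contains ACGTG). Capitals mark every match on either strand.
IGF1R, chr15:98648289-98648538, plus strand: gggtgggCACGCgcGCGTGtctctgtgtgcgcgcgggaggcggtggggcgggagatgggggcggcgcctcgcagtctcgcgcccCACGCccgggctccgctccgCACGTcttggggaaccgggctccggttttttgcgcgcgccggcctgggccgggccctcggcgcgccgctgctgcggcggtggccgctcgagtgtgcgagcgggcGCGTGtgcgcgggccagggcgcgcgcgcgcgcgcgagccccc
INSR, chr19:7294415-7294664, minus strand: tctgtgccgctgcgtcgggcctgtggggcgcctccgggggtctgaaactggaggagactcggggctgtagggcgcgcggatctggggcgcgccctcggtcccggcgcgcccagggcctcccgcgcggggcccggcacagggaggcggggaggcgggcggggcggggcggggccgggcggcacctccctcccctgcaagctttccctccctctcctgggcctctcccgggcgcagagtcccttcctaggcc
IRS1, chr2:226799821-226800070, minus strand: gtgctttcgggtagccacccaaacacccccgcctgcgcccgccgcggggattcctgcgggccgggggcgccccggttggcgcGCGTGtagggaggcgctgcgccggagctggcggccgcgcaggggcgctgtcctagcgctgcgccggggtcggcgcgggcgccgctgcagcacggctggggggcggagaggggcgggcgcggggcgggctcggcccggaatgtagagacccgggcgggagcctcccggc
IRS2, chr13:109786584-109786833, minus strand: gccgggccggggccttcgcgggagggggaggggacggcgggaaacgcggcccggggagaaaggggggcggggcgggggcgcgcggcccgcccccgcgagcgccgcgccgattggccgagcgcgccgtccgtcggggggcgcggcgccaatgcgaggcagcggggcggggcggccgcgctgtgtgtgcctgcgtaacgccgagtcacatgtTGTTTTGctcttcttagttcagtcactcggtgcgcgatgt

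IGF1R held 1 ACGTG, at positions -146 to -142 from the gene start, and 4 GCGTG, while INSR held none of the searched letters. IRS1 held 1 GCGTG, at -168 to -164. IRS2 held CAAAACA on the opposite strand at -40 to -34, printed as its reverse complement, and no HIF core. ACGTG is present in 18.5% of the 35116 promoters of the same length, GCGTG in 32.2% and CAAAACA in 4.30%. The windows are rich in G and C, between 76.4% and 81.2% of bases, and a match describes letters only.

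The other genes of the pathway were read from a list of 54 genes, of which 46 were tested. Hypoxia raised 15 and lowered 14 of the 46, where 19.5% and 20.3% of all tested genes were called. The compound in hypoxia raised 11 and lowered 11, against 16.2% and 13.7% of all tested genes. Against normoxia 8 were higher and 1, IGF2-AS, was lower, against 3.0% and 0.516%. The medians of the list were 0.20, -0.01 and 0.09. Without replicate 3 of 32-134D the counts with the compound were again 11 higher and 11 lower, and against normoxia 6 higher and 0 lower. The shares of all tested genes were then 16.7% and 14.1%, and 2.81% and 0.372%.

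Genes for further IGF carriers and for IGF2R were lower in hypoxia and higher with the compound. IGFALS, the acid-labile subunit that joins IGF and IGFBP3 into the large serum complex, had 13.9, 12.9 and 14.3 CPM at 20% O2, 1.64, 1.98 and 2.11 CPM in hypoxic vehicle, and 10.0, 9.49 and 1.92 CPM with 32-134D. IGFALS fell by 2.86 on the log2 scale in hypoxia, and its rise with the compound, 1.94, came from replicates 1 and 2, since replicate 3 lay at the hypoxic level, and was 2.37 without it. IGF2R, the mannose 6-phosphate receptor that removes IGF2, fell by 1.11 in hypoxia and rose by 1.20 with the compound, or by 0.997 without replicate 3. Of the 3 tested genes among other binding proteins and the ternary complex, 3 were lower in hypoxia and 3 higher with the compound. Over all tested genes 20.3% were called lower in hypoxia and 16.2% higher with the compound, and both comparisons use the hypoxic vehicle libraries. IGFBP7 was at -1.11 and 0.66 and IGFBPL1 at -1.28 and 1.07. Without replicate 3 the compound values were 0.82 for IGFBP7 and 1.20 for IGFBPL1. IGF2BP1 and IGF2BP3, which bind IGF2 mRNA, were at -0.65 and -0.85 in hypoxia and at 0.60 and 0.75 with the compound (0.61 and 0.78 without replicate 3), and IGF2BP2 was not called.

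STC2, an inhibitor of the protease PAPPA that releases IGF from IGFBP4, had 20.9, 27.8 and 24.6 CPM at 20% O2 and 390.7, 397.6 and 361.2 CPM in hypoxic vehicle. With 32-134D it had 84.6, 86.1 and 152.9 CPM, between the vehicle groups. Its log2 fold changes were 3.99 in hypoxia, -1.83 with the compound and 2.15 against normoxia. All 3 passed the test, and without replicate 3 the compound values were -2.17 and 1.82. PAPPA itself was hardly detected, with at most 1 count in any library, and its relative PAPPA2 had at most 4.

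Inside the cell, 12 genes were listed as brakes on the pathway, and whether each, such as the adaptor GRB7, acts as a brake was not tested here. Of these, 7 rose in hypoxia, PHLPP2 only just past the threshold at 1.505-fold, and 1, GRB14, fell. Over all tested genes 19.5% and 20.3% were called higher and lower. TRIB3, which binds AKT, rose by 2.62 on the log2 scale, SOCS3 by 2.19 and the receptor-binding adaptor GRB7 by 1.78. With the compound these 3 fell by 1.14, 1.13 and 1.23, and without replicate 3 the values were -1.52, -1.095 and -1.15. Against normoxia TRIB3 and SOCS3 were still called higher, at 1.48 and 1.06, and GRB7, at 0.55, was not called. Without replicate 3 all 3 were called higher, at 1.09 for TRIB3, 1.09 for SOCS3 and 0.63 for GRB7. Of the 12 listed, 4 were called lower and 1 higher with the compound in hypoxia, against 13.7% and 16.2% of all tested genes. Replicate 3 of 32-134D held 231.1 CPM of TRIB3 against 120.5 and 121.8 CPM in replicates 1 and 2. Of the 4 FOXO factors, FOXO1, FOXO3 and FOXO4 rose in hypoxia, by 0.71, 1.61 and 0.75, and fell by 0.61, 1.09 and 0.71 with the compound (-0.60, -1.08 and -0.76 without replicate 3), while FOXO6 was not called in either.

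Of the 9 PI 3-kinase and AKT genes reported here, 4 fell in hypoxia and 1 rose, PIK3CA, by 0.86, which is named after its value was seen. Over all tested genes 20.3% were called lower and 19.5% higher. PIK3R3 and PIK3R1, regulatory subunits of PI 3-kinase, fell by 1.86 and 1.42. With the compound PIK3R3 rose by 1.65, or by 1.73 without replicate 3. PIK3R1 rose by 0.94, from replicates 1 and 2, at 61.4 CPM each, while replicate 3, at 24.3 CPM, lay at the level of hypoxic vehicle, and without it the rise was 1.26. Of the 8 adaptors tested, GAB1 and SH2B2 rose in hypoxia, by 1.53 and 1.76, and SH2B1 fell by 0.65. With the compound GAB1 and SH2B2 fell by 0.93 and 1.02 (-1.002 and -0.99 without replicate 3). Against normoxia both were still called higher, at 0.60 and 0.73. Without replicate 3 GAB1, at 0.52, was not called against normoxia and SH2B2, at 0.73, was. The call of SOS1 with the compound, 1.07, rested on replicate 3, at 243.2 CPM against 54.2 and 62.5 CPM, and the value without it was 0.04.

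**Figure D5:**
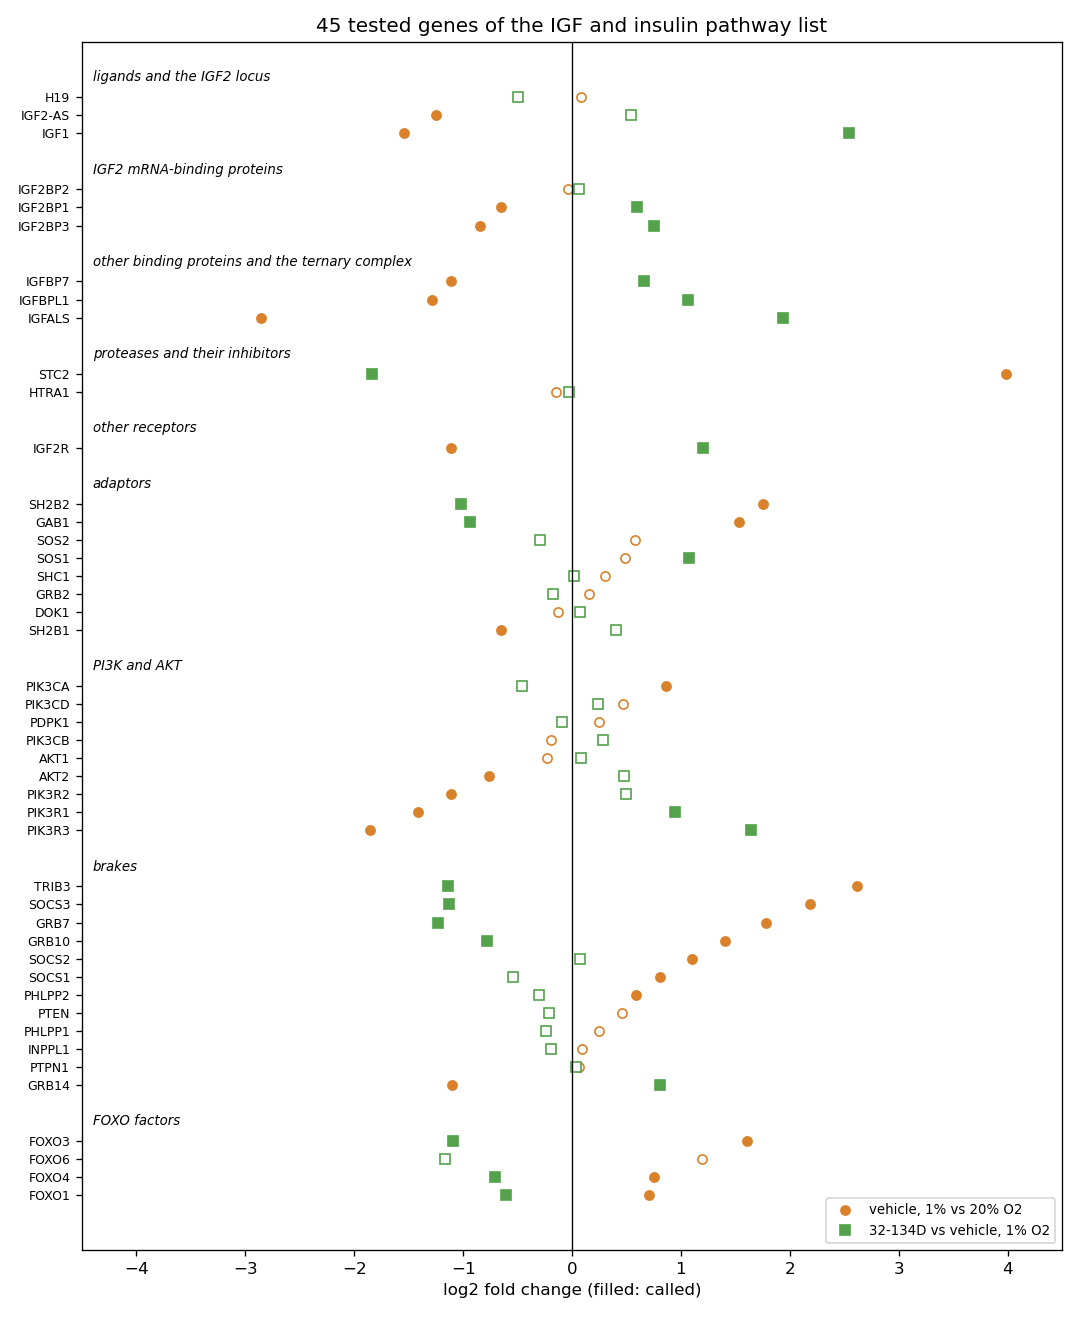
Log2 fold change (horizontal axis) of 45 of the 46 tested genes of the pathway list, grouped by role, in hypoxia (circles) and with 32-134D in hypoxia (squares); filled symbols were called. Both comparisons use the hypoxic vehicle libraries. STC2 lay at 3.99 and -1.83, and IGFALS at -2.86 and 1.94.

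Genes with the most similar profile over the 9 libraries were found among 9877 genes with a mean of at least 10 CPM, by the root-mean-square difference of centred log2 CPM. For IGFBP1 the nearest were ATF3, at 0.57, HSPA6, at 0.67, and GDF15, at 0.87, and HSPA6 may share reads with its near copy HSPA7. For IGF2 they were ALDH6A1, PNPLA3 and GOLGA2P5, each at 0.15. For IRS2 they were YARS1, MYC and MAST1, between 0.07 and 0.09. IGFBP3 was nearest to MAP3K20, SQLE and SESN1, all with little change between groups. The IGFBP3 profile itself varied little (SD 0.22), and its lowest library was replicate 3 of 32-134D, at 61.2 CPM.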

How the data were processed

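Per the labels and the methods of the study, total RNA of Hep3B cells was sequenced and reads were trimmed, checked with FastQC and MultiQC, aligned to GRCh38 with STAR and counted per Ensembl gene with featureCounts. The authors deposited raw counts, 1 column per library, and 0 columns were left unmapped. Tool versions, the strand setting and the handling of shared reads are not given in the sources used here. From these counts, CPM were computed with TMM factors, and levels per kilobase with the exon union of GENCODE release 29. The counts themselves used Ensembl release 100, so exon lengths and overlaps can differ from the gene models counted. Of the 60683 listed genes 58496 were found in GENCODE release 29, and so were all 10 members. One quasi-likelihood model of all 9 libraries was fitted in edgeR 4.0.16 (R 4.3.3) to the 22672 genes with at least 10 summed counts. Genes with FDR below 0.05 over all tested genes and a fold change above 1.5 were called. DESeq2 1.42.0, other scalings and filters, and fits leaving out each library were alternatives, and the scripts were tested on simulated data. Total counts were 6013980 to 40549699 per library, so genes of a few CPM carry more counting error. The members and the pathway list were chosen with earlier results of these data known. All 10 members were named, and from the pathway list the IGF2 locus genes, IGFBP5, IGFALS, IGF2R and up to 3 called genes per role and comparison with the largest change. PAPPA and PAPPA2 were added for their counts. Cell markers were ALB, AFP, APOA1, APOB, TTR, FGB, SERPINA1, HNF4A, PTPRC, PECAM1, CD68, COL1A1 and ACTA2. One gene of the pathway list is counted but not reported here.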

Additional observations from a re-analysis of the deposited data

How the results depend on the processing

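The direction and call of IGF2, IGF1R and IRS2 in hypoxia, of IGFBP1 in hypoxia and against normoxia, and of IGF2 and IGF1R with the compound held in all 16 alternative fits. Members called lower with the compound in hypoxia numbered 1 with DESeq2, DESeq2-type (RLE) size factors, total library size, at least 10 counts in every library or only the 2 groups compared, and IGFBP1 was then under the 1.5-fold threshold. With a fold threshold of 2, members called were 1 lower in hypoxia, 1 higher and 0 lower with the compound, and 1 higher against normoxia. On the pathway list that threshold left 6 higher and 7 lower with the compound, and 5 higher and 0 lower against normoxia. Of all 22672 tested genes it left 3286 lower in hypoxia and 2451 higher with the compound. Without a fold threshold 18 pathway genes were lower with the compound and 2 against normoxia, where 5788 and 553 of all tested genes were lower. The percentages of all tested genes given above hold for the 1.5-fold threshold only. Counts in this section without a figure for all tested genes describe dependence on the processing only. Against normoxia, 2 pathway genes were lower without the low-count filter, and with only the 2 groups compared 0 pathway genes were lower and 1 member was higher. The cause was not tested, other than the thresholds themselves. Leaving out 1 library at a time gave 0 to 3 members lower with the compound, 1 to 3 members higher against normoxia, and 5 to 9 higher and 0 to 1 lower pathway genes against normoxia. In those fits uncalled values changed sign: IGFBP3 with the compound ran from -0.033 to 0.27 and IGFBP4 from -0.061 to 0.44, and against normoxia IGFBP2 ran from -0.023 to 0.35, IGFBP3 from -0.17 to 0.15 and IGF1R from -0.19 to 0.090. IRS2 against normoxia was not called without replicate 2 of vehicle at 20% O2 or replicate 3 of 32-134D, nor with 2 groups. Scaling by total library size moved the median log2 fold change of all genes to -0.21 in hypoxia and 0.17 with the compound. The share of called genes that were higher then went from 49.0% to 34.5% in hypoxia and from 54.2% to 72.0% with the compound, and no member changed sign. Same-numbered libraries of different groups did not deviate together (correlations of -0.15 to 0.07), so the numbers were not used as pairs. A fit with the replicate block called 2 members higher and 2 lower in hypoxia and 2 higher and 2 lower with the compound, and changed no other call of a member. Replicates numbered 3 per group, and small libraries limit what can be said of IGFBP2, IGFBP6 and IGF1.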

Other observations

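MIR483, a microRNA gene in an intron of IGF2, had 13, 12 and 39 counts at 20% O2, 1, 2 and 3 counts in hypoxic vehicle and 23, 14 and 5 counts with 32-134D. The gene was chosen after its values were seen, and these are RNA-seq reads over the gene, not mature microRNA. It lies on the same strand as IGF2, so its precursor and unspliced IGF2 RNA cannot be told apart. In replicate 3 of 32-134D, SOS1 exceeded the average of its 2 group mates 4.17-fold, SOCS2 2.52-fold and STC2 1.79-fold, and IGFALS was lower than that average 5.08-fold and PIK3R1 2.53-fold. SOCS2 was also called higher against normoxia with that library left out, at 0.61 on the log2 scale. IGFBP7 and IGF2R had no call against normoxia, at -0.44 and 0.09, or at -0.29 and -0.11 without replicate 3 of 32-134D.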
